A study of Mus musculus with 66 samples.

Results

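The mucosa of the mouse mid-colon was compared between the end of an injury with dextran sulfate sodium (DSS) and a time 3 days later. All sections labelled mucosa of mid-colon from mice killed at day 6 or day 9 were used, which gave 6 of the 66 samples of the series: mice 8, 9 and 10 at day 6, and mice 11, 12 and 13 at day 9. The main changes were a rise of cell division and crypt genes, a fall of genes of mature absorptive and goblet cells, and a further rise of neutrophil genes. Some fibrillar collagen genes fell. Calls among genes of macrophages, in both directions, and of the injured epithelium were not far from the share over all genes.

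DSS, given in drinking water, damages the colonic epithelium and lets bacteria and their products reach the tissue beneath. The epithelium is renewed from stem cells at the crypt base, whose division depends on Wnt signals. Their daughters divide further up the crypt and mature into absorptive colonocytes and mucus-making goblet cells near the surface. Neutrophils enter the wall early in colitis, and macrophages and stromal cells clear and rebuild the tissue.

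The animals were C57Bl/6 mice, bought at 6 weeks of age, that carried no labelled allele or transgene. Both groups were given 3% DSS for 6 days from day 0, so the day 6 group was killed at its end and the day 9 group had been off it for 3 days. Each sample was a different mouse, so the days could not be paired. The labels give no sex, date or batch. The mid-colon of 4 uninjured mice of day 0 served as the reference level, and the labels list no uninjured mice of day 6 or 9. Each sample was bulk tissue, in which fewer cells of a type and less RNA per cell cannot be told apart.

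Expression was given as transcripts per 1000000 (TPM), a level per transcript length that sums to 1000000 in each sample, and was added up per gene. Read counts were not part of the file, and depth is therefore unknown. Day 6 samples had 11343 to 11700 genes at 1 TPM or more and day 9 samples 12021 to 12258. The 10 most abundant genes took 28.3% to 30.2% of all TPM at day 6 and 18.6% to 27.3% at day 9, and because TPM is a share of a fixed total, a fall of abundant genes raises the others. The epithelial genes Epcam, Krt8, Vil1 and Cdx1 were present in all 6 samples, with Epcam at 1223, 1248 and 987 TPM at day 6 and 912, 980.2 and 835 TPM at day 9. Smooth muscle genes were also present, at a summed 1062 to 1499.8 TPM at day 6 and 608 to 904 TPM at day 9, while of 6 fat cell genes Plin1, Lep and Cfd were listed at 0 in all 6 samples and Fabp4, also made by endothelial cells, was at 8.47, 9.69 and 9.17 TPM at day 6 and 10.2, 9.52 and 10.7 TPM at day 9. A listed 0 may be a failed estimate, since the mitochondrial gene mt-Atp8 was also listed at 0 in all 6.

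Of 12131 genes tested, 4919 were called at a Benjamini-Hochberg adjusted p under 0.05 in limma (40.5%), 3794 higher at day 9 (31.3%) and 1125 lower (9.27%). Outside the comparison of rectum with mid-colon, every adjusted p below for a single gene is from this test. Each log2 change, given with its SE, is day 9 minus day 6 on the log2(TPM + 1) scale, which understates the change of low genes. Differences between the sections come from a separate fit. The balance of directions depended on the scaling: the tested genes had a median log2 change of 0.26, and factors from the trimmed mean of M-values (TMM) brought it to -0.01. With TMM factors 5450 genes were called (44.9%), 2896 higher (23.9%) and 2554 lower (21.1%). Of 3768 genes called higher as deposited and tested both ways, 2896 were also called higher with TMM and 0 lower. All 1125 genes called lower as deposited were also called lower with TMM, and 1410 were called lower only with TMM. The TMM factors were 0.8496 to 0.9541 at day 6 and 1.003 to 1.23 at day 9, which moves the changes downward, so the kept falls are no separate check. List members were read against these shares. Where a call of a named gene was lost when 1 mouse was left out, the mice are named.

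The genes with the largest rises were nearly all genes of cell division. Among called genes with a mean of at least 8 TPM at the higher day and no overlap between the days, these were Ccnb1, Ccna2, Birc5, Cdca3, Top2a, Pla2g2a, Cdk1, Rrm2, Mki67 and Cdc20, with log2 changes from 4.38 to 5.02. Ccnb1 (ENSMUSG00000041431), the cyclin that activates Cdk1 at entry into mitosis, was at 6.91, 0.831 and 1.10 TPM in the day 6 mice and at 81.6, 118 and 105 TPM in the day 9 mice (log2 change 5.02 ± 0.50, adjusted p 0.00022). The mean of Ccnb1 was thus 34.4 times higher at day 9, and the 4 uninjured mice had 5.59 to 17.9 TPM. Mki67 (ENSMUSG00000031004), a marker of cycling cells, went from 4.92, 0.575 and 0.921 TPM to 42.0, 72.8 and 54.2 TPM (log2 change 4.42 ± 0.46, adjusted p 0.00026). Mouse 8 had the highest level of both genes at day 6, within the uninjured range of 4.68 to 11.9 TPM for Mki67, and mice 9 and 10 lay below that range.

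**Figure D1:**
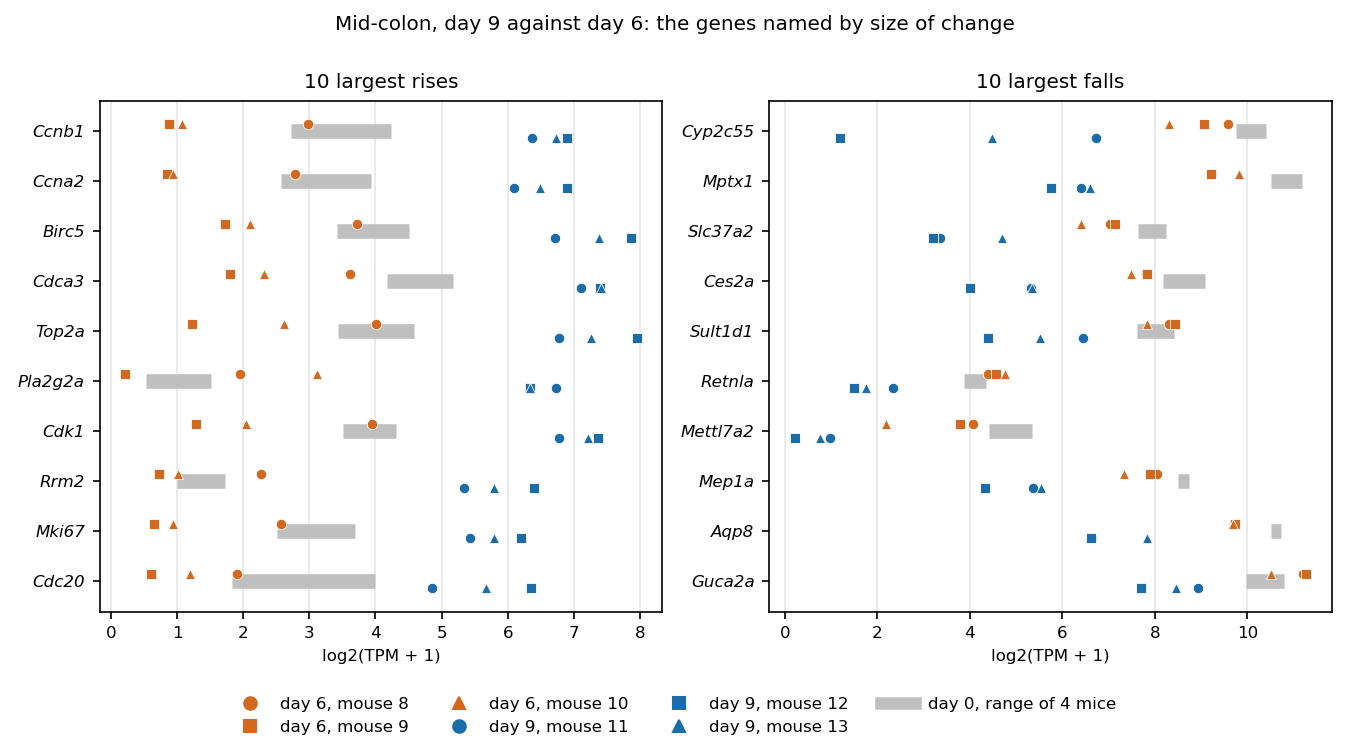
Levels of the 10 genes with the largest rises and the 10 with the largest falls between day 6 and day 9 in mid-colon, as log2(TPM + 1), with 1 point per mouse (orange, day 6; blue, day 9) and a grey bar for the range of the 4 uninjured mice. The days do not overlap for any of the 20 genes, which the rule for naming them required.

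All 24 listed cell cycle genes were tested and called higher, against 31.3% of all genes, with log2 changes from 1.57 to 5.02 and a median of 3.87 against 0.26. For 3 of them, Bub1, Ccne1 and E2f1, no day 6 sample reached 1 TPM, so they passed the filter only through day 9 and had to differ. The count was 24 with TMM factors and without each of the 6 mice. Genes of DNA replication rose along with those of mitosis. Pcna, the sliding clamp of DNA polymerase, was at 93.6, 88.7 and 82.2 TPM at day 6 and 337, 416 and 349.5 TPM at day 9 (log2 change 2.04 ± 0.14, adjusted p 0.000134). Rrm2, the small subunit of ribonucleotide reductase that supplies DNA precursors, was at 3.83, 0.648 and 1.02 TPM and 39.5, 83.1 and 54.2 TPM (log2 change 4.50 ± 0.42, adjusted p 0.000172). The replication helicase subunits Mcm2, Mcm3, Mcm5 and Mcm6 rose by 3.52, 3.70, 4.23 and 3.76 on the log2 scale.

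The mice of day 6 differed widely in the mitotic genes and little in Pcna. Top2a, the topoisomerase that untangles sister chromatids, was at 15.1, 1.34 and 5.12 TPM at day 6 and 108, 246 and 151 TPM at day 9 (log2 change 4.71 ± 0.62, adjusted p 0.000689). Summed over the list, the cell cycle genes were at 213, 125 and 128 TPM in mice 8, 9 and 10 and at 1309, 2235 and 1698 TPM in mice 11, 12 and 13. The uninjured mice had 188 to 316 TPM, so mouse 8 lay inside that range, mice 9 and 10 below it, and all day 9 mice above it.

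The promoters of the cell cycle genes are shown because these genes moved together. In dividing cells, many such promoters are bound through CCAAT boxes and the cell cycle gene homology region, with core letters TTTGAA. RefSeq promoters of the GRCm38.p6 build were found for 22 of the 24 genes (all but Aurkb and Ccna2), and both motifs were searched on both strands in the 250 bases before the annotated start. CCAAT (or ATTGG on the other strand) was present in 17 of 22 (77.3%), against 33.8% of all 32851 promoters of the table. At least 2 copies were present in 12 of 22 (54.5%), against 10.1%. TTTGAA (or TTCAAA) was present in 7 of 22 (31.8%), against 16.0%, and both motifs together in 7 of 22, against 5.55%. The 250 bases before the start of Cdk1 (chr10:69352913-69353162, minus strand), Cdc20 (chr4:118437344-118437593, minus strand) and Mki67 (chr7:135716380-135716629, minus strand) are printed 5′ to 3′, with both motifs in capitals.
Cdk1: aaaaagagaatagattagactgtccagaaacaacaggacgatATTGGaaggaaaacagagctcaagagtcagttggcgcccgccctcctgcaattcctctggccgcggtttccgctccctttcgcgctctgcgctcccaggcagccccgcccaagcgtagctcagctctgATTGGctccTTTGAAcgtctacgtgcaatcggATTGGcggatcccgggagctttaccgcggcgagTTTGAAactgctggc
Cdc20: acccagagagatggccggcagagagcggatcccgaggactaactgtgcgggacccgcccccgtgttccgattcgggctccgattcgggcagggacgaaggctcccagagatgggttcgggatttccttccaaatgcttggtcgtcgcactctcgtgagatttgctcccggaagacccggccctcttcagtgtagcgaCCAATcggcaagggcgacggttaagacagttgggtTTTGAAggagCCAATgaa
Mki67: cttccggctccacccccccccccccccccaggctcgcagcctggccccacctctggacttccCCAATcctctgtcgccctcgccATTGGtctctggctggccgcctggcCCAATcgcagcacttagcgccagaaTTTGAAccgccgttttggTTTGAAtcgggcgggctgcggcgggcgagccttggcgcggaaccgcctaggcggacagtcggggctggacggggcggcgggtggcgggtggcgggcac
In Cdk1 and Cdc20 the TTTGAA nearest the start began 15 and 18 bases before it, and in Mki67 98 bases before it. Birc5, Ccne1, Cdt1, E2f1 and Tyms rose without either motif in this window. The letters are a description of the sequence, and binding was not measured.

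Crypt genes rose in part. Of 17 listed crypt stem cell and Wnt target genes, 13 were tested, and 10 were called higher, against 31.3% of all genes, and 0 lower. The median was 1.40 (8 higher and 1 lower with TMM factors). Cdca7, a Myc target of dividing crypt cells, was at 2.81, 1.98 and 2.28 TPM at day 6 and 28.5, 53.4 and 45.8 TPM at day 9 (log2 change 3.66 ± 0.25, adjusted p 0.000134). Ccnd1, a cyclin of the first growth phase and a Wnt target, was at 5.18, 2.98 and 5.78 TPM and 28.2, 82.3 and 45.1 TPM (log2 change 3.13 ± 0.37, adjusted p 0.000444). Myc, a growth-promoting transcription factor, rose by 2.54 ± 0.24 and Cd44, a crypt surface receptor, by 2.39 ± 0.28. The day 9 mice lay above every day 6 mouse for 10 of the 13 tested genes, of which 3 had passed the filter only through day 9, against 39.6% of all genes tested.

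The stem cell genes gave a split picture. Ascl2, a transcription factor of crypt stem cells, was at 0, 0 and 0.0379 TPM at day 6 and 1.32, 3.49 and 2.42 TPM at day 9 (log2 change 1.70 ± 0.24, adjusted p 0.000991). Axin2, a feedback inhibitor and readout of Wnt signalling, was at 0.368, 0.485 and 0.110 TPM and 1.64, 3.73 and 2.33 TPM (log2 change 1.40 ± 0.24, adjusted p 0.00244). Neither reached 1 TPM in any day 6 mouse, so both passed the filter only through day 9, as did Tcf7. The Wnt feedback gene Nkd1 passed only through day 6, with every day 9 mouse below every day 6 mouse, and was not called. Lgr5, the R-spondin receptor that marks these stem cells, stayed below the filter, at 0.0119, 0.0266 and 0.345 TPM and 0.0389, 0.165 and 0.587 TPM, and the days overlapped. Sox9 (3.77, 2.06 and 2.89 TPM at day 6 and 1.86, 5.59 and 4.01 TPM at day 9) and Ephb3 (3.01, 2.40 and 4.75 TPM at day 6 and 2.52, 5.16 and 3.40 TPM at day 9) also overlapped and were not called. Rnf43, a Wnt feedback inhibitor, was called (log2 change 0.67 ± 0.21, adjusted p 0.0343), but not without mouse 9, 10, 12 or 13 and not with TMM factors.

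Genes of mature absorptive colonocytes fell. Of 21 listed, 20 were tested and 14 were called lower, against 9.27% of all genes, and 2 higher, with a median of -1.20 (14 lower and 1 higher with TMM factors, median -1.50). Aqp8 (ENSMUSG00000030762), a water channel of the surface epithelium, was at 832, 850.1 and 822 TPM at day 6 and 99.4, 97.4 and 226 TPM at day 9 (log2 change -2.67 ± 0.30, adjusted p 0.000347). Its mean was 5.92 times lower at day 9, and it had been at 1469 to 1685 TPM in uninjured mice. Guca2a, which encodes guanylin, a peptide that drives salt and water secretion, was at 2367, 2483 and 1469 TPM and 489.6, 206 and 351 TPM (log2 change -2.64 ± 0.32, adjusted p 0.000494). Day 6 mice 8 and 9 were above the uninjured range of 1011 to 1783 TPM and all day 9 mice were below it.

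Slc26a3, the chloride and bicarbonate exchanger of the colonic surface, was at 938, 1117 and 884 TPM at day 6 and 285, 94.1 and 228 TPM at day 9 (log2 change -2.41 ± 0.36, adjusted p 0.0013). Car1 and Car4, carbonic anhydrases that supply bicarbonate, had log2 changes of -1.90 and -1.59, and Mep1a, a brush border metalloprotease, one of -2.68. The most abundant of the list was Lypd8, a surface protein that keeps bacteria off the epithelium, at 36209.8, 40108 and 40098 TPM and 20957, 13274 and 16536 TPM (log2 change -1.22 ± 0.18, adjusted p 0.00118). At day 6 the summed list stood at 57579 to 62160.3 TPM, above the uninjured 43642 to 50573 TPM, and at day 9 at 18349 to 29132 TPM, below it. Lypd8 made up most of that sum, and gene by gene 12 of the 21 already had a day 6 mean below the uninjured range and 4 above it.

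Not all absorptive genes fell. Guca2b, which encodes the related peptide uroguanylin, was at 10.6, 6.38 and 4.37 TPM at day 6 and 23.2, 16.9 and 21.0 TPM at day 9 (log2 change 1.46 ± 0.28, adjusted p 0.00422), in the opposite direction to Guca2a. The sodium channel subunits Scnn1b (6.62, 9.90 and 6.22 TPM at day 6 and 16.5, 4.60 and 9.56 TPM at day 9) and Scnn1g (3.09, 10.3 and 7.98 TPM at day 6 and 7.81, 4.91 and 9.88 TPM at day 9) overlapped between the days and were not called. Slc9a3, a sodium and proton exchanger, was called higher (log2 change 0.75 ± 0.21, adjusted p 0.0192), but not without mouse 8, 9 or 13 and not with TMM factors. S100g, a calcium-binding protein induced by vitamin D, had already been low at day 6, at 26.3, 7.97 and 13.1 TPM against 234 to 721 TPM in uninjured mice, and was at 4.99, 1.14 and 1.13 TPM at day 9 (log2 change -2.33 ± 0.50, adjusted p 0.00672).

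Genes of drug, steroid and retinoid metabolism included the largest of the named falls. Of 20 listed, 18 were tested. Of these 10 were called lower and 3 higher, against 9.27% and 31.3% of all genes, with a median of -0.74. With TMM factors 11 were called lower and 2 higher, against 21.1% and 23.9%. Cyp2c55 (ENSMUSG00000025002), a colonic cytochrome P450, was at 767, 536 and 316 TPM in the day 6 mice and 105, 1.28 and 21.3 TPM in the day 9 mice (log2 change -4.86 ± 1.15, adjusted p 0.0107). All day 9 mice were below all day 6 mice, but mouse 11 kept a much higher level than mouse 12, and it was no longer called with a robust prior or without the filter on low values. Adh1, an alcohol and retinol dehydrogenase, and Ces2c, a carboxylesterase, had log2 changes of -1.48 and -1.84. Nr1i2, the xenobiotic receptor PXR, was at 29.6, 29.4 and 28.6 TPM and 17.4, 17.3 and 19.3 TPM (log2 change -0.67 ± 0.14, adjusted p 0.00678).

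Of the 5 glutathione transferases among these, grouped after their values were seen, Gsta3 and Gsta4 were called higher, Gstt1 lower (log2 change -1.09 ± 0.21) and Gstm1 and Gstm3 were not called. Gsta3, which conjugates electrophiles to glutathione, was at 1.82, 1.40 and 1.07 TPM at day 6 and 23.7, 16.4 and 29.4 TPM at day 9 (log2 change 3.29 ± 0.24, adjusted p 0.000134). Mice 11 and 13 of day 9 lay within the uninjured range of 21.4 to 34.5 TPM, mouse 12 below it, and all day 6 mice below mouse 12. Gsta4, which detoxifies products of lipid peroxidation, was at 27.3, 25.5 and 36.5 TPM and 69.8, 67.9 and 58.3 TPM (log2 change 1.12 ± 0.18, adjusted p 0.00162), above the uninjured 28.3 to 45.1 TPM.

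The remaining named falls were Mptx1, Slc37a2, Ces2a, Sult1d1, Retnla and Mettl7a2. Slc37a2, a sugar phosphate transporter, was at 130.0, 139.8 and 84.3 TPM at day 6 and 9.30, 8.19 and 25.1 TPM at day 9 (log2 change -3.11 ± 0.39, adjusted p 0.000547). Mptx1, a pentraxin, and Mettl7a2, a methyltransferase-like gene, had log2 changes of -3.18 ± 0.25 and -2.70 ± 0.46, which are uncertain because both have close relatives that short reads may not separate. Ces2a, a carboxylesterase, and Sult1d1, a sulfotransferase, had log2 changes of -2.82 ± 0.34 and -2.74 ± 0.45. Pla2g2a, a secreted phospholipase and the only named rise outside cell division, was at 2.89, 0.161 and 7.67 TPM and 105, 79.5 and 79.5 TPM (log2 change 4.70 ± 0.61, adjusted p 0.000643). C57BL/6 mice are known to carry a mutation that disrupts Pla2g2a.

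Goblet cell genes fell in part. Of 13 listed, all 13 were tested, and 7 were called lower, against 9.27% of all genes, and 0 higher. The median was -0.57. The count was 4 without mouse 9 and 4 with all 19 mid-colon samples in the fit. With TMM factors 10 were called lower (median -0.88), against 21.1% of all genes. The summed list was at 35196.5 to 35425.2 TPM at day 6, above the uninjured 21853.2 to 28544.9 TPM, and at 14794 to 26898.2 TPM at day 9. Clca1, a secreted mucus-processing protease, was at 5116, 4693 and 5232 TPM at day 6 and 1952, 1121 and 1469 TPM at day 9 (log2 change -1.76 ± 0.20, adjusted p 0.000362). Tff3, a trefoil peptide of mucosal repair, was at 7576, 8387 and 8493 TPM and 4053, 1983 and 3402 TPM (log2 change -1.43 ± 0.25, adjusted p 0.00239). Muc2, the gel-forming mucin, was at 1395, 1436 and 1252 TPM and 813, 995 and 956 TPM (log2 change -0.57 ± 0.14, adjusted p 0.0118; lost without mouse 9), and the uninjured range was 473 to 872 TPM. For Muc2 mouse 11 was thus inside the uninjured range and mice 12 and 13 above it. The lineage factors Atoh1 (10.2, 6.76 and 7.33 TPM at day 6 and 5.89, 5.66 and 7.19 TPM at day 9) and Spdef (18.5, 20.5 and 21.5 TPM at day 6 and 16.5, 16.4 and 17.3 TPM at day 9) were not called, and both were called lower with TMM factors. Retnlb, a goblet cell antibacterial protein, overlapped between the days at 10.0, 12.9 and 40.9 TPM at day 6 and 21.1, 48.8 and 44.5 TPM at day 9.

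Hormone genes of enteroendocrine cells gave few calls. Of 12 listed, 9 were tested, and 1 was called higher and 1 lower, against 31.3% and 9.27% of all genes. The median was 0.29 (-0.02 with TMM factors). Gcg, which encodes the glucagon-like peptides, was at 46.3, 54.0 and 81.5 TPM at day 6 and 106, 128 and 122 TPM at day 9 (log2 change 0.99 ± 0.22, adjusted p 0.00728), against 10.2 to 14.9 TPM in uninjured mice. Tac1, which encodes substance P, was at 131, 93.7 and 373 TPM and 61.7, 76.5 and 71.8 TPM (log2 change -1.24 ± 0.43, adjusted p 0.0499), with mouse 10 highest. That call was lost without mouse 8, 11, 12 or 13 and under most other alternatives. Without mouse 11, 3 genes of the list were called higher. Neurog3, the factor that starts this lineage, was below the filter, at 0, 0 and 0.0399 TPM at day 6 and 0.437, 1.49 and 1.94 TPM at day 9. Of 11 listed tuft cell genes 5 were tested and 0 were called (1 lower, Ltc4s, with TMM factors). At an unadjusted p under 0.05 limma gave 2 of them, Avil and Ltc4s.

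**Figure D2:**
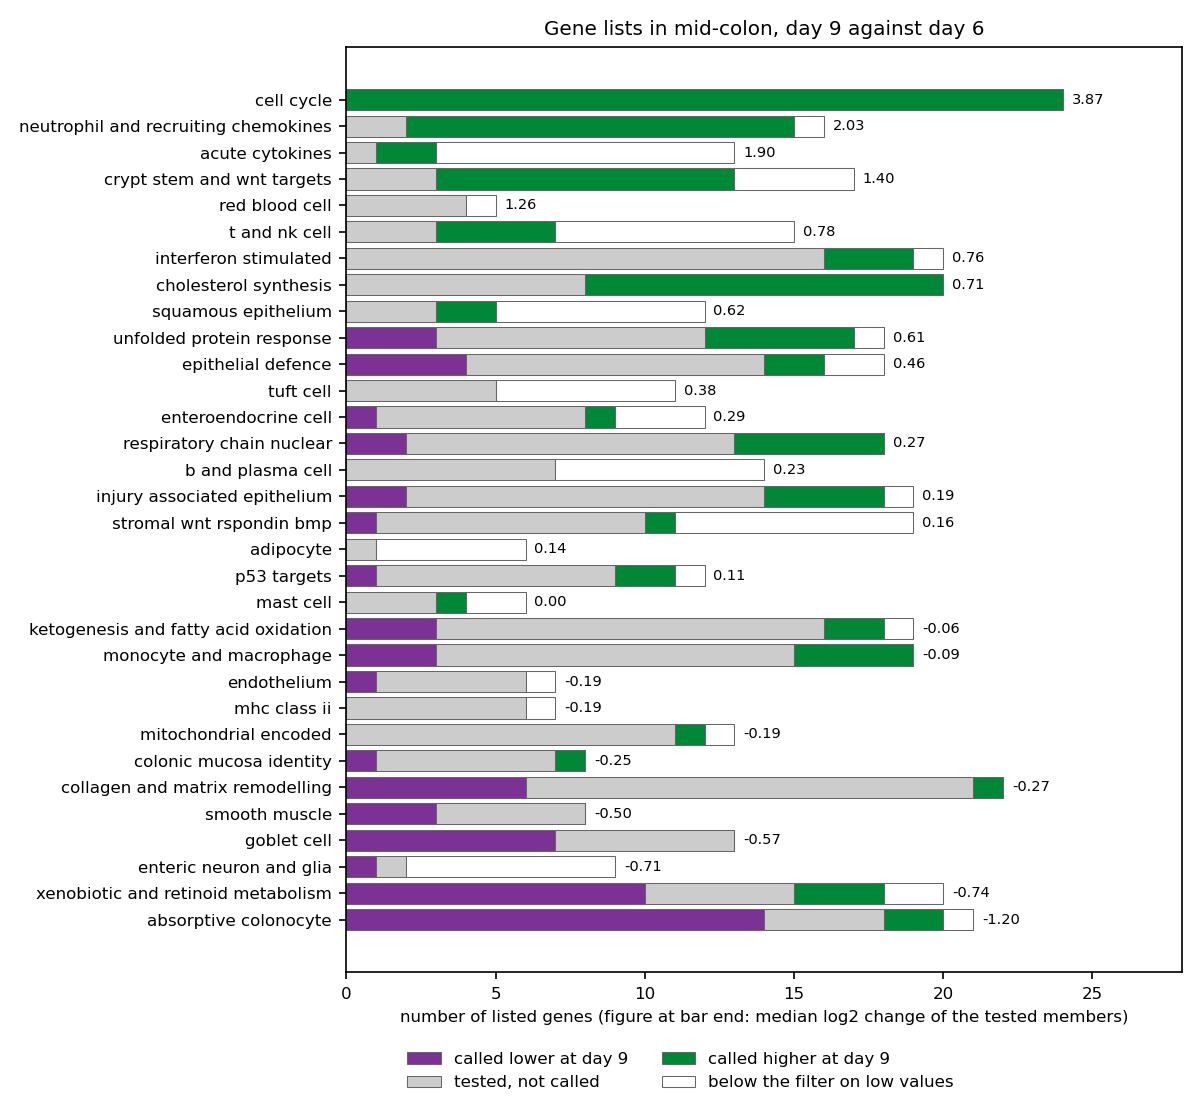
Number of genes of each list called higher (green), called lower (purple), tested but not called (grey) and below the filter (white) in mid-colon at day 9 against day 6, with the median log2 change of the tested members at the end of each bar. Cell cycle genes (24 of 24 higher) and absorptive colonocyte genes (14 of 20 lower) stand at the ends, against 31.3% higher and 9.27% lower over all genes.

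Genes of the injured and fetal-like epithelium were called at about the share of all genes. Of 19 listed, 18 were tested, 4 were called higher and 2 lower, against 31.3% and 9.27% of all genes, with a median of 0.19 (2 higher and 5 lower with TMM factors, median -0.12). Ly6a, the surface protein Sca-1 that marks regenerating epithelium, was at 2874, 3399 and 5958 TPM at day 6 and 3589, 5793 and 3593 TPM at day 9 against 575 to 936 TPM in uninjured mice. The days overlapped for Ly6a, and the change of 0.12 ± 0.29 was not called (adjusted p 0.77). Il33, an alarmin, was at 4.33, 7.61 and 7.53 TPM and 12.8, 26.8 and 25.3 TPM (log2 change 1.56 ± 0.31, adjusted p 0.00498), and Emp1, a membrane protein of wounded epithelium, rose by 0.87 ± 0.13. The growth factor Areg, a ligand of the EGF receptor, was at 67.2, 37.7 and 59.8 TPM and 18.8, 37.1 and 31.2 TPM (log2 change -0.91 ± 0.29, adjusted p 0.0368; lost without mouse 8, 10, 11 or 13). Anxa1 (lost without mouse 8, 9, 12 or 13) and Tnfrsf12a (lost without mouse 9, 10, 12 or 13) were also called higher, neither with TMM factors, and S100a6 was called lower. Without mouse 9, 12 or 13 the list had 2 genes called higher. Ereg (4.54, 1.89 and 4.29 TPM at day 6 and 1.33, 6.49 and 3.93 TPM at day 9) and Clu (18.1, 3.74 and 11.6 TPM at day 6 and 10.4, 6.67 and 9.98 TPM at day 9) overlapped and were not called.

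Of 8 listed identity genes of the colonic epithelium, 1 was called higher (Cdx2) and 1 lower (Lgals4), against 31.3% and 9.27% of all genes. With TMM factors 1 was called higher and 5 lower, against 23.9% and 21.1%. Cdx2, the transcription factor that sets intestinal identity, was at 5.41, 2.92 and 2.35 TPM at day 6 and 10.7, 8.97 and 6.82 TPM at day 9 (log2 change 1.14 ± 0.28, adjusted p 0.0116), with all day 6 mice below the uninjured 5.62 to 9.94 TPM. Lgals4, a galectin of mature enterocytes, was at 6519.6, 6850.1 and 6329.6 TPM and 4302, 3744 and 4169.7 TPM (log2 change -0.69 ± 0.12, adjusted p 0.00296).

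Neutrophil genes rose further after DSS was withdrawn. Of 16 listed neutrophil genes and recruiting chemokines, 15 were tested, with a median of 2.03. Of these 13 were called higher, against 31.3% of all genes, and 0 lower (13 higher with TMM factors, against 23.9%). For 2 of these, Mmp8 and Trem1, no day 6 sample reached 1 TPM, and the call of Trem1 was lost without mouse 8 or 11. S100a9 (ENSMUSG00000056071), a subunit of calprotectin, an abundant neutrophil protein, was at 27.8, 16.8 and 92.7 TPM at day 6 and 519, 1057 and 213 TPM at day 9 (log2 change 3.75 ± 0.68, adjusted p 0.0032). Retnlg, a resistin-like gene of neutrophils, was at 2.54, 1.52 and 5.76 TPM and 97.0, 118 and 23.3 TPM (log2 change 4.07 ± 0.59, adjusted p 0.00114). Cxcl5, an epithelial chemokine that recruits neutrophils, was at 10.6, 7.42 and 49.0 TPM and 107, 168 and 68.2 TPM (log2 change 2.67 ± 0.62, adjusted p 0.00983). Every day 9 mouse was above every day 6 mouse for 13 of the 15 tested genes, against 39.6% of all genes tested. The mice of each day still differed widely: the summed list was at 88.1, 56.6 and 294 TPM at day 6 and 1484, 2599 and 585 TPM at day 9. Mouse 10 was highest at day 6 and mouse 13 lowest at day 9. The count was 9 without mouse 8, 10 without mouse 9 or 11, 11 without mouse 12 and 14 without mouse 10 or 13. With no filter on low values it was 8.

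Cytokines were low and variable. Of 13 listed acute cytokines, 3 were tested and 2 were called higher, Il1a and Il1b, against 31.3% of all genes. With TMM factors 0 were called, and Il1a was lost without mouse 8, 9, 11 or 12. Il1b, a pyrogenic cytokine of myeloid cells, was at 7.85, 11.1 and 25.4 TPM at day 6 and 51.4, 188 and 26.7 TPM at day 9 (log2 change 2.20 ± 0.66, adjusted p 0.0289; lost without mouse 8, 9, 11 or 12). Mouse 12 alone was far above the rest, and mouse 13 lay next to mouse 10. Tnf overlapped at 3.43, 2.45 and 13.3 TPM at day 6 and 16.1, 14.3 and 7.43 TPM at day 9. Il6, Il17a, Il22, Il23a and Il12b had no day 9 sample at 1 TPM.

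Interferon-stimulated genes differed widely between the mice of day 9. Of 20 listed, 19 were tested, and 3 were called higher and 0 lower, against 31.3% and 9.27% of all genes. The median was 0.76. With TMM factors 1 was called higher and 1 lower, against 23.9% and 21.1%. Cxcl9, a chemokine induced by interferon gamma, was at 0.680, 0.364 and 0.989 TPM at day 6 and 3.74, 13.2 and 3.11 TPM at day 9 (log2 change 1.97 ± 0.43, adjusted p 0.00771), and passed the filter only through day 9. Isg15, a ubiquitin-like protein induced by type I interferon, overlapped at 14.6, 11.1 and 27.0 TPM at day 6 and 25.4, 80.0 and 14.0 TPM at day 9. The summed list was at 880.4, 1553 and 445 TPM in mice 11, 12 and 13, so mouse 12 was highest and mouse 13 lowest, below the day 6 mice (556 to 839 TPM). The call of Iigp1 was lost without mouse 8, 9, 11 or 12. Without mouse 13, 7 genes of the list were called higher, without mouse 8 or 9 1, without mouse 10 2, and without mouse 12 2 higher and 1 lower.

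Epithelial defence genes were called in both directions. Of 18 listed, 16 were tested, and 2 were called higher (Nox1 and Reg3b) and 4 lower, against 31.3% and 9.27% of all genes. With TMM factors 2 were called higher and 5 lower, against 23.9% and 21.1% of all genes. Nox1, the NADPH oxidase of the colonic epithelium, was at 1.40, 0.196 and 0.302 TPM at day 6 and 13.6, 16.3 and 34.7 TPM at day 9 (log2 change 3.75 ± 0.38, adjusted p 0.000236), with the uninjured mice in between at 4.00 to 6.48 TPM. Reg3b, a bactericidal lectin, was at 0.227, 0.509 and 1.18 TPM and 4.52, 24.6 and 5.77 TPM (log2 change 2.63 ± 0.53, adjusted p 0.00524). Il18, a cytokine stored in epithelial cells, was at 408, 303 and 371 TPM and 101, 92.9 and 132 TPM (log2 change -1.73 ± 0.18, adjusted p 0.000257), and went from above to below the uninjured 196 to 223 TPM. Retnla, a resistin-like secreted protein, was at 20.1, 22.6 and 26.1 TPM and 4.08, 1.84 and 2.39 TPM (log2 change -2.70 ± 0.24, adjusted p 0.000156). Pigr, which carries IgA across the epithelium, had a log2 change of -0.89. Saa1, an acute phase protein with near-identical copies, was also called lower, and that call was lost without each mouse but 11. Mouse 10 stood apart at day 6, for example in Saa3 (12.4, 22.7 and 222 TPM at day 6 and 75.2, 70.8 and 40.7 TPM at day 9), which was not called. Without mouse 10 the list had 7 genes higher and 3 lower.

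Macrophage genes were called in both directions, not far from the share over all genes. Of 19 listed monocyte and macrophage genes, all 19 were tested, and 4 were called higher and 3 lower, against 31.3% and 9.27% of all genes. The median was -0.09. With TMM factors 3 were called higher and 7 lower, against 23.9% and 21.1% of all genes. The genes called higher were Itgam (listed under 2 identifiers, of which the more abundant was used), Ly6c2, Chil3 and Spp1, of which Itgam and Chil3 are also made by neutrophils and Ly6c2 marks recruited monocytes. Chil3, a chitinase-like protein, was at 2.88, 1.01 and 3.63 TPM at day 6 and 21.2, 31.8 and 8.45 TPM at day 9 (log2 change 2.53 ± 0.47, adjusted p 0.00359). The calls of Ly6c2 (lost without mouse 8, 9 or 12) and Spp1 (lost without mouse 8, 9, 12 or 13) were less stable. The count was 2 higher and 2 lower without mouse 8 or 12, and 2 higher and 4 lower without mouse 9. The genes called lower were Cd68, Lyz2 and Mrc1, and the call of Mrc1 was lost without mouse 8, 10, 12 or 13. Lyz2, lysozyme of myeloid cells, was at 409, 360.3 and 543 TPM and 254, 176 and 182 TPM (log2 change -1.09 ± 0.20, adjusted p 0.00362), and Cd68, a lysosomal protein, at 30.7, 27.2 and 43.0 TPM and 18.3, 20.1 and 20.6 TPM (log2 change -0.72 ± 0.19, adjusted p 0.0182). Both remained above their uninjured ranges of 84.8 to 129 and 4.27 to 6.31 TPM at day 9. The complement genes C1qa, C1qb and C1qc overlapped between the days and were not called, and all 3 were called lower with TMM factors.

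T and NK cell genes were low. Of 15 listed T and NK cell genes, 7 were tested and 4 were called higher, against 31.3% of all genes. These were Cd3d, Lck, Gzmb and Nkg7 (3 with TMM factors, where Gzmb was below the filter). None of the 4 had a day 6 sample at 1 TPM, so all passed only through day 9 and had to differ. Gzmb, a protease of cytotoxic cells, was at 0.327, 0.314 and 0.531 TPM at day 6 and 5.41, 4.86 and 1.00 TPM at day 9 (log2 change 1.61 ± 0.40, adjusted p 0.014; lost without mouse 12), and Cd3d was lost without mouse 9. The count was 8 without mouse 8 and 7 without mouse 10. Of 14 listed B and plasma cell genes 7 were tested and 0 were called (1 lower with TMM factors), and the list summed to 39.4 to 153 TPM at day 6 and 51.2 to 78.1 TPM at day 9. Of 7 listed class II genes of antigen presentation 6 were tested and 0 were called (2 lower with TMM factors), with H2-Aa at 143, 149 and 208 TPM at day 6 and 144, 174 and 125 TPM at day 9 against 51.1 to 63.8 TPM in uninjured mice. At an unadjusted p under 0.05 limma gave 0 genes in both of the last lists.

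Some collagen and matrix genes fell, and most of these calls were lost when 1 of several mice was left out. Of 22 listed collagen and matrix genes, all 22 were tested, and 6 were called lower and 1 higher, against 9.27% and 31.3% of all genes. The median was -0.27. With TMM factors 8 were called lower and 1 higher (median -0.53), against 21.1% and 23.9%. Sparc, a collagen-binding protein of fibroblasts, was at 147, 141 and 138 TPM at day 6 and 56.1, 74.2 and 79.7 TPM at day 9 (log2 change -1.03 ± 0.16, adjusted p 0.00168), below the uninjured 102 to 161 TPM. Col3a1, a fibrillar collagen, was at 214, 192 and 191 TPM and 52.8, 117 and 126 TPM (log2 change -1.10 ± 0.30, adjusted p 0.02; lost without mouse 8, 9 or 10), with mouse 11 lowest. Col1a1, Col1a2, Col6a3 and Lox, the collagen cross-linking enzyme, were also called lower, and each call was lost without mouse 8 and without mouse 9. Those of Col1a1, Col6a3 and Lox were also lost without mouse 10, and that of Lox without mouse 12 or 13. In the list, 1 gene was called lower without mouse 8, 2 without mouse 9 or 10 and 3 with no filter on low values, and 6 were called higher without mouse 11 and 2 without mouse 10. Col4a1, a basement membrane collagen, was at 7.22, 7.12 and 7.61 TPM and 6.08, 12.2 and 9.53 TPM and was not called. Mmp7, an epithelial metalloprotease, was at 0, 0 and 0.0643 TPM and 2.76, 1.70 and 1.59 TPM (log2 change 1.54 ± 0.19, adjusted p 0.000492), and was below 1 TPM in every day 6 mouse.

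Stromal signals gave few calls. Of 19 listed Wnt, R-spondin and BMP genes, 11 were tested. Bmp5 was called higher and Bmp2 lower, against 31.3% and 9.27% of all genes (0 higher and 3 lower with TMM factors, against 23.9% and 21.1%). The call of Bmp5 was lost without each mouse but 11. Bmp2, a differentiation signal of the upper crypt, was at 31.4, 23.2 and 18.9 TPM at day 6 and 6.93, 12.8 and 14.7 TPM at day 9 (log2 change -1.06 ± 0.29, adjusted p 0.0197; lost without mouse 8 or 9). Grem1, a BMP antagonist of fibroblasts, was at 18.2, 18.1 and 17.8 TPM and 13.4, 27.5 and 22.2 TPM against 4.38 to 5.96 TPM in uninjured mice, with an interval of the change from -0.40 to 0.72. Rspo3, which amplifies Wnt signals, was at 2.74, 3.07 and 3.26 TPM at day 6 and 2.31, 3.25 and 2.27 TPM at day 9. The interval for Rspo3 ran from -0.58 to 0.25.

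Markers of other tissues were given to place these changes. Of 8 smooth muscle genes 3 were called lower, against 9.27% of all genes, and 0 higher (5 lower with TMM factors, against 21.1%). Tagln was at 470.0, 569 and 488 TPM at day 6 and 279, 217 and 259.9 TPM at day 9 (log2 change -1.01 ± 0.15, adjusted p 0.00121). The calls of Acta2 (without mouse 8, 9, 11 or 12) and Cnn1 (without mouse 9, 10, 11 or 12) were lost, and the list had 1 call without mouse 9, 11 or 12. Smooth muscle and collagen genes thus moved in the same direction, and the part of muscle in the collagen result was not tested. The 5 tested of 12 squamous genes included 2 called higher, Krt13 and Dsg3, against 31.3% of all genes. Dsg3 passed the filter only through day 9. Krt13, a keratin of moist squamous lining, was at 1.08, 0.366 and 2.34 TPM and 7.43, 9.05 and 5.75 TPM (log2 change 1.97 ± 0.32, adjusted p 0.00191), while the basal keratin Krt5 (0.359, 0 and 0.797 TPM at day 6 and 0.638, 0.305 and 0.0540 TPM at day 9) and the basal factor Trp63 (0.0119, 0.00888 and 0.0238 TPM at day 6 and 0.0515, 0.0392 and 0.0465 TPM at day 9) were below the filter. Haemoglobin genes, whose near-identical copies make single values uncertain, were summed with the other red blood cell genes at 68.4, 160.1 and 381 TPM at day 6 and 741, 382 and 258 TPM at day 9. Mouse 10 of day 6 lay above mouse 13 of day 9, and limma called 0 of the 4 tested red blood cell genes (2, Hbb-bs and Hbb-bt, at an unadjusted p under 0.05, and 4 higher without mouse 10). Cldn5, an endothelial tight junction gene, was at 12.0, 7.00 and 6.04 TPM and 2.19, 1.91 and 2.24 TPM (log2 change -1.54 ± 0.25, adjusted p 0.00176), the only endothelial gene of 6 tested that was called. Vip, a neuropeptide of enteric nerves, was called lower (log2 change -1.17 ± 0.30, adjusted p 0.0157; lost without mouse 8), and 7 of the 9 listed nerve and glia genes were below the filter.

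Sterol genes rose in part. Of 20 listed cholesterol synthesis genes, all 20 were tested, and 12 were called higher, against 31.3% of all genes, and 0 lower. The median was 0.71, against 0.26 over all tested genes. With TMM factors 8 were called higher and 2 lower (median 0.41), against 23.9% and 21.1% of all genes. Idi1, an isomerase of the isoprenoid pathway, was at 17.2, 24.3 and 29.2 TPM at day 6 and 49.3, 70.6 and 88.2 TPM at day 9 (log2 change 1.51 ± 0.26, adjusted p 0.00239), and Fdps, the farnesyl diphosphate synthase, at 62.3, 55.3 and 75.3 TPM and 108, 180.2 and 233 TPM (log2 change 1.36 ± 0.27, adjusted p 0.00483). Mouse 13 was highest for both. Dhcr7, an enzyme of the last steps, was at 35.1, 29.9 and 25.0 TPM and 16.9, 15.0 and 29.6 TPM and was not called, and Hmgcs1 overlapped at 43.3, 64.9 and 73.2 TPM at day 6 and 64.2, 73.0 and 95.0 TPM at day 9. The count of called genes was 7 without mouse 8, 6 without mouse 9, 12 or 13 (1 lower without mouse 13), 8 with no filter on low values and 7 with all 19 mid-colon samples in the fit.

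Stress and energy genes showed smaller changes. Of 17 tested of 18 genes of the unfolded protein response, 5 were called higher and 3 lower, against 31.3% and 9.27% of all genes. With TMM factors 0 were called higher and 3 lower, against 23.9% and 21.1%. Hspa5, the main chaperone of the endoplasmic reticulum, overlapped at 267, 319 and 581 TPM at day 6 and 316, 710.1 and 779 TPM at day 9. Atf3, a stress-induced transcription factor, was at 56.8, 33.1 and 89.0 TPM and 8.09, 21.6 and 12.2 TPM (log2 change -2.01 ± 0.41, adjusted p 0.00531), back in or below the uninjured 12.0 to 29.6 TPM. Without mouse 11, 11 genes of this list were called higher, without mouse 8 or 13 1, and without mouse 9 or 12 0, as well as 1 with no filter on low values. Of 18 tested fatty acid oxidation and ketogenesis genes, 2 were called higher and 3 lower, against 31.3% and 9.27% of all genes. With TMM factors 1 was called higher and 9 lower, against 23.9% and 21.1%. Without mouse 8 or 9 the counts were 1 and 1. Bdh1, a ketone body dehydrogenase, was at 28.5, 27.4 and 22.9 TPM at day 6 and 40.3, 50.8 and 57.6 TPM at day 9 (log2 change 0.88 ± 0.18, adjusted p 0.0054). Of 18 nuclear respiratory chain genes 5 were called higher, near the share of 31.3% over all genes, and 2 lower, and with TMM factors 1 higher and 5 lower. The count of those higher was 8 without mouse 11, 3 without mouse 8 and 1 without mouse 9, 10, 12 or 13. Of 11 tested targets of p53, 2 were called higher (Bax and Ccng1) and 1 lower (Gdf15), against 31.3% and 9.27% of all genes. The call of Gdf15 was lost without mouse 8, 9, 11 or 13, and that of Ccng1 with TMM factors. The arrest gene Cdkn1a overlapped at 132, 135 and 129.9 TPM at day 6 and 108, 192 and 138 TPM at day 9.

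Against the uninjured mid-colon, most called genes lay out of range at day 9, and many already did at day 6. Of the 3794 genes called higher, 1850 had a day 6 mean below the range of the 4 uninjured mice (48.8%) and 1723 within it (45.4%). At day 9, 3334 had a mean above that range (87.9%) and 443 within it (11.7%). Of the 1125 called lower, 418 had a day 6 mean below the uninjured range (37.2%), 421 within it (37.4%) and 286 above it (25.4%). At day 9, 951 had a day 9 mean below the uninjured range (84.5%) and 130 within it (11.6%). The range of 4 mice is narrow, so these are descriptions with no test. Choosing genes by their change between these days favours day 9 means above the range for rises and below it for falls. The same shares were not taken over all tested genes, and the values are as deposited, without TMM factors. Of the 24 cell cycle genes, 18 had a day 6 mean below that range and all 24 a day 9 mean above it. Of the 21 absorptive genes 12 had a day 6 mean below it and 4 above it, and at day 9 17 were below and 2 above. Of the 13 goblet genes 2 had a day 6 mean below the range and 10 above it, and at day 9 6 were below and 4 above. All 16 neutrophil genes had means above the range at both days.

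**Figure D3:**
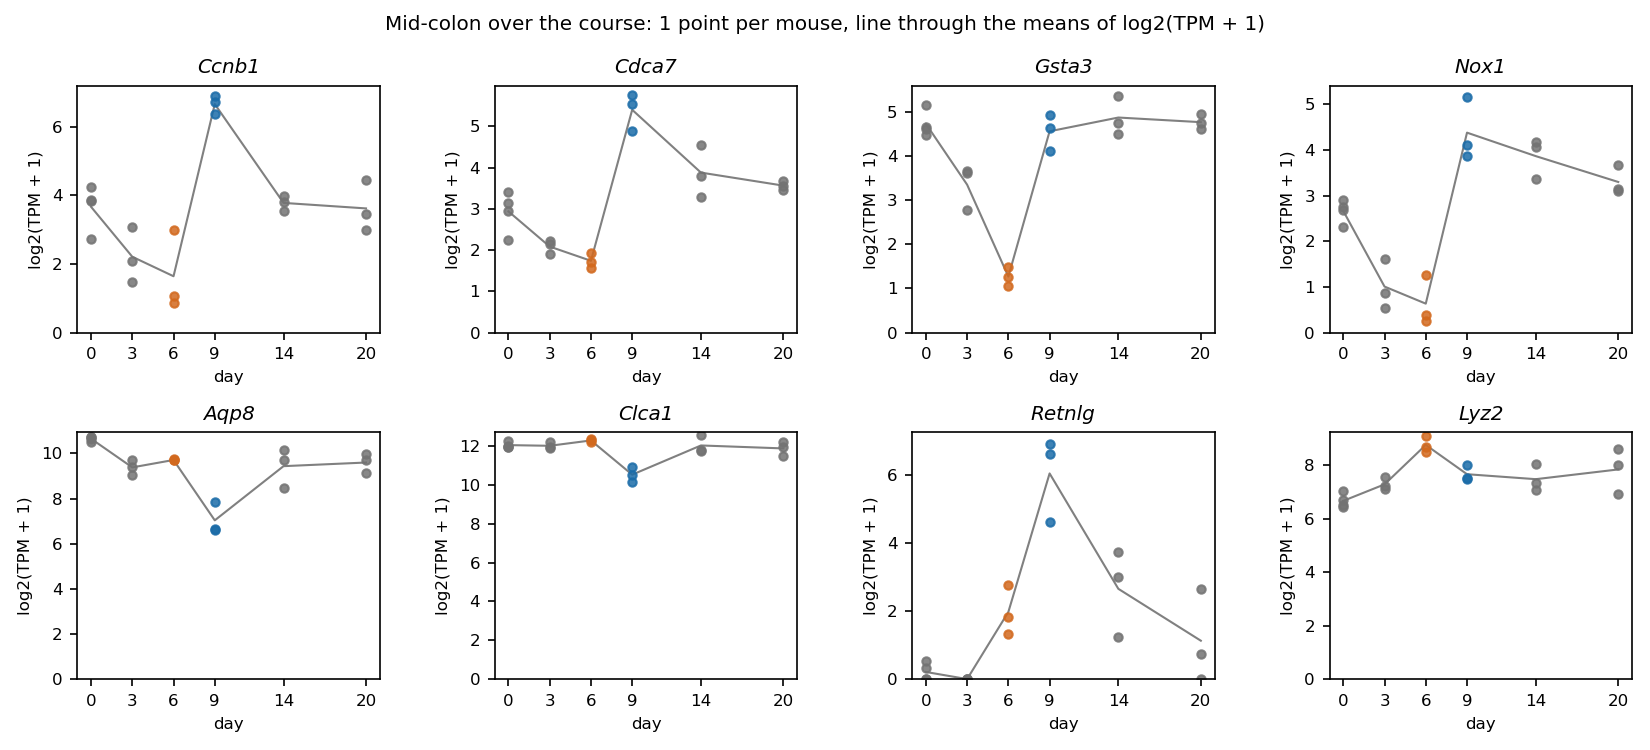
Levels of 8 listed genes in mid-colon at days 0, 3, 6, 9, 14 and 20 as log2(TPM + 1), with 1 point per mouse (4 at day 0, 3 at each later day; orange, day 6; blue, day 9) and a line through the daily means. Ccnb1, Cdca7, Gsta3 and Nox1 were at their lowest mean at day 6, Aqp8 and Clca1 at day 9, while Retnlg had its highest mean at day 9 and Lyz2 at day 6. The genes were chosen after their values were seen.

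The change between the days was then compared with that in the rectum, the end of the large bowel, of the same 6 mice, by the difference of the changes (rectum minus mid-colon). Of 13288 genes, limma called 0 at an adjusted p under 0.05 (0% of those tested), and 1199 had an unadjusted p under 0.05 (9.02%). With the mouse as a replicate block, 1 gene was called, and 1751 had an unadjusted p under 0.05. The differences, intervals and unadjusted p-values given below are from the fit without the block, which treats both sections of a mouse as independent samples. A test that calls nothing does not show that the sections responded alike, and the intervals, given at 95%, were wide. For Ccnb1 the rectal change was 4.31 against 5.02 in mid-colon, a difference of -0.71 (interval -2.39 to 0.97). For Aqp8 it was -2.83 against -2.67, a difference of -0.15 (interval -1.50 to 1.20). The median change of the cell cycle list was 3.14 in rectum and 3.87 in mid-colon, and that of the absorptive list -1.47 and -1.20.

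Of the 19 monocyte and macrophage genes, 10 had an unadjusted p under 0.05, against 9.02% of all genes, each with the higher change in rectum, and 0 passed the adjustment. The median change of the list was -0.09 in mid-colon and 0.86 in rectum. Arg1, an arginase of alternatively activated and wound macrophages, was at 0.533, 0.0663 and 2.40 TPM at day 6 and 2.69, 3.66 and 1.13 TPM at day 9 in mid-colon, and at 2.80, 1.33 and 5.69 TPM and 92.8, 139 and 52.8 TPM in rectum. The difference of its changes was 3.61 ± 0.71 (interval 2.06 to 5.16; raw p 0.000269, adjusted p 0.165), and Arg1 was the gene called with the mouse block. It was also called with a pseudocount of 5. Lyz2 changed by -1.09 in mid-colon and 0.26 in rectum, a difference of 1.36 ± 0.37 (interval 0.54 to 2.17; raw p 0.00347, adjusted p 0.246). For collagen and matrix genes 6 of 22 had an unadjusted p under 0.05, all higher in rectum, among them Sparc with a difference of 0.97 ± 0.33 (interval 0.25 to 1.70; raw p 0.013, adjusted p 0.372). Squamous genes, 5 of 8 with an unadjusted p under 0.05, were also all higher in rectum, with Krt5 at 0.314, 0.112 and 4.18 TPM at day 6 and 131, 15.3 and 17.4 TPM at day 9 there. Squamous genes of the rectal sections thus moved along with these differences, and their part in them was not tested. Gcg went the other way, with 169.5, 133 and 216 TPM and 146, 111 and 139 TPM in rectum and a difference of -1.36 ± 0.31 (interval -2.05 to -0.67; raw p 0.000981, adjusted p 0.183).

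**Figure D4:**
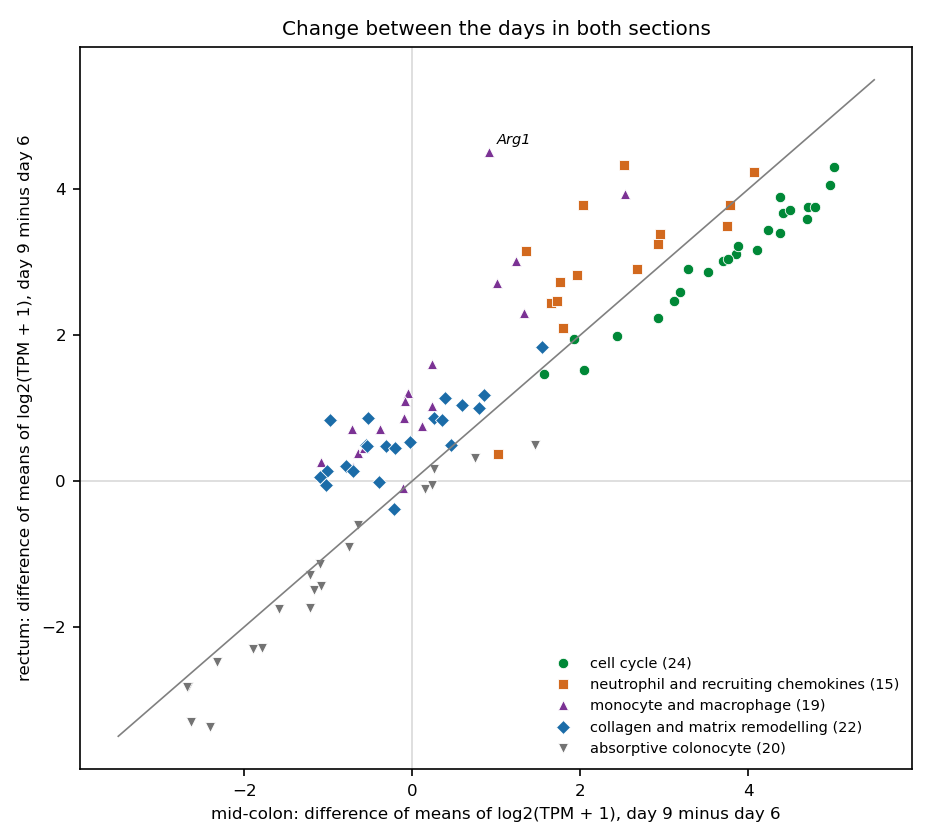
Change from day 6 to day 9 in mid-colon (x axis) and rectum (y axis) as differences of means of log2(TPM + 1), for the tested genes of 5 lists, 1 point per gene; the diagonal marks equal change. Monocyte and macrophage genes (triangles) lie mostly above the diagonal, with Arg1 at 0.91 in mid-colon and 4.51 in rectum. No gene passed the adjusted test of the difference with all mice, the filter at 1 TPM, a pseudocount of 1 and no mouse block.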

How the data were processed

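RNA of mid-colon and rectal mucosa was sequenced as stranded mRNA libraries with single reads of 75 bp, per the labels' protocols. The authors deposited TPM (transcripts per 1000000) per transcript, a value in neither counts nor depth, and kallisto, CASAVA and mm10 are named per the submitters' processing notes, without versions. The deposited table repeats transcripts, so 1318 repeated rows were dropped, after which each column summed to 1000000, and TPM were added per gene identifier. Transcripts without an identifier held at most 2.34% of TPM. Genes with at least 1 TPM in 3 samples were tested with limma 3.58.1 (R 4.3.3) after the transform log2(TPM + 1) (mean-dependent prior, Benjamini-Hochberg adjustment over all genes tested), on the 6 mid-colon samples, or on 12 samples for the difference between sections. The fits were also run on simulated data in which few genes changed, so those runs could not test how the balance of directions depends on scaling. Both sections come from 1 animal, and their deviations correlated at 0.159 to 0.51 per mouse (mean 0.329), so a fit with the mouse as a block was an alternative. Genes named by size were the 10 largest called rises and 10 largest falls with a mean of at least 8 TPM at the higher day, no overlap, and a proper symbol (no predicted genes, copies or receptor segments). The comparison, the lists and the genes were chosen with earlier results of these data known. Other pseudocounts, filters, scalings, priors and each mouse left out were tried.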

Additional observations from a re-analysis of the deposited data

Results flagged for a closer look

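Arg1 was picked out because its change from day 6 to day 9 differed between the 2 sections of the same mice. With the mouse as a replicate block, limma gave a difference (rectum minus mid-colon) of 3.61 on the log2 scale, with an adjusted p of 0.00117, the 1 gene called in that fit. Without the block the difference was also 3.61, with an adjusted p of 0.165. Over all alternatives tried its limma adjusted p ran from 0.00117 to 0.645. With a pseudocount of 5 it was 3.20, with an adjusted p of 0.0257. In rectum the day 9 mice had 92.8, 139 and 52.8 TPM, above the 2.80, 1.33 and 5.69 TPM of the day 6 mice, while the mid-colon days overlapped.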

How the results depend on the processing

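The number of genes called between the days was 4919 and stayed within 1.5 times that count under each other pseudocount, filter, scaling and prior tried, and with all 19 mid-colon samples in the fit (3890 to 5450). An added 2-fold minimum left 2461. Leaving out 1 mouse gave 3485 to 5511. The share of calls that were higher was 77.1% as deposited, 53.1% with TMM factors and 54.4% with median-of-ratios factors. No paired analysis was possible because the days were different mice that share no number.

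For the contrast of both sections, where 0 genes were called, a pseudocount of 0.1 gave 1, a pseudocount of 5 gave 14 and no filter on low values gave 3. With the mouse as a replicate block 1 gene was called. Leaving out 1 mouse gave 0 to 28, with 28 without mouse 11, 2 without mouse 13 and 1 without mouse 8. Filtering at 5 TPM, TMM factors and rescaling without mitochondrially encoded genes each left 0. The causes were not tested. Of 123 called genes followed by name, 93 kept the call under every alternative other than the 2-fold minimum, and 30 lost it under at least 1. Of the 20 genes named for the size of their change, Cyp2c55 lost its call (no filter, robust prior). The other 19 lost it under none of the alternatives in which they were tested, and Mettl7a2 was not tested at 5 TPM. These 20 were chosen for large changes without overlap, which favours stable calls. With 3 mice a day an exact permutation test of 1 gene cannot go below p = 0.1, and without depths the precision of low values is unknown.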

Other observations

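A group of growth genes chosen after the main results were seen rose with the cell cycle genes, and its values are given as a description. All 20 listed genes of ribosome biogenesis were tested and called higher in limma, against 31.3% of all genes, also with TMM factors. Their median log2 change was 2.69 against 0.26 over all tested genes. For Polr1a, a subunit of RNA polymerase I, no day 6 sample reached 1 TPM, so it had to differ. Nop56, a core protein of box C/D small nucleolar ribonucleoproteins, was at 14.4, 14.8 and 10.5 TPM in the day 6 mice and 146, 264 and 207 TPM in the day 9 mice (log2 change 3.83 ± 0.24, adjusted p 0.000134), against 18.8 to 28.6 TPM in uninjured mice. Ncl, which encodes nucleolin, was at 62.6, 57.9 and 49.1 TPM and 356, 716 and 419.6 TPM (log2 change 3.05 ± 0.25, adjusted p 0.000144). All 18 listed genes of nucleotide and one-carbon metabolism were also called higher, with a median of 2.50 (18 higher with TMM factors), of which Cad passed the filter only through day 9. Phgdh, the first enzyme of serine synthesis, was at 1.42, 2.38 and 0.978 TPM and 11.0, 35.1 and 31.5 TPM (log2 change 3.26 ± 0.41, adjusted p 0.000583). The day 9 mice were above every day 6 mouse for these 3 genes.

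The 9 listed claudins seal or open the tight junction and were likewise chosen afterwards. Of these 2 were called higher and 3 lower, against 31.3% and 9.27% of all genes. With TMM factors 2 were called higher and 5 lower, against 23.9% and 21.1%. Cldn2, a channel-forming claudin of the crypt, was at 3.29, 0.384 and 0.433 TPM at day 6 and 40.9, 33.0 and 50.3 TPM at day 9 (log2 change 4.36 ± 0.42, adjusted p 0.000193), against 12.8 to 26.3 TPM in uninjured mice. Cldn15, also channel-forming, rose by 1.77 ± 0.39. Cldn3, a sealing claudin, was at 416, 351 and 374 TPM and 189, 220.4 and 199 TPM (log2 change -0.90 ± 0.13, adjusted p 0.00126), and Cldn8, another, at 130.1, 96.6 and 128 TPM and 59.2, 39.4 and 52.3 TPM (log2 change -1.22 ± 0.20, adjusted p 0.00177). Cldn23 had a log2 change of -0.99 ± 0.21.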
